A study of Mus musculus with 18 samples.

Results

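The core circadian clock genes Arntl (Bmal1), Clock, Npas2, Per1, Per2, Per3, Cry1, Cry2, Nr1d1 and Nr1d2 were followed in the livers of 18 mice. These 10 genes were chosen by name, for their place in the clock loop, from 19597 genes with a probe above background. Each is read by 1 probe, and all 10 passed that filter. C57BL/6 male mice were put at 6 weeks of age on a diet in which fat gave 10% (LFD) or 60% (HFD) of the energy, and after 10 weeks some received methotrexate, an antifolate, at 50 mg/kg in 5 weekly intraperitoneal injections (MTX50). The groups were LFD (n = 4), LFD MTX50 (n = 5), HFD (n = 4) and HFD MTX50 (n = 5), with 1 one-colour Agilent array per mouse. All mice stayed on their diet throughout, were housed singly and fed ad libitum, and livers of treated mice were taken after the last round. The time of day of harvest and the light schedule were not given in the sources used here.

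The clock is a transcriptional feedback loop that runs in nearly every cell. ARNTL pairs with CLOCK or its relative NPAS2 and drives genes that carry an E-box, among them the Per and Cry repressors and the nuclear receptors Nr1d1 (REV-ERBα) and Nr1d2 (REV-ERBβ). PER and CRY proteins return to block ARNTL-CLOCK, and the REV-ERBs repress genes with a RORE element, which ROR receptors activate. In liver the transcripts of Arntl, Clock and Npas2 are known to peak near the trough of Nr1d1, the Per genes and the output factor Dbp, with Cry1 following with a delay.

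The elements that wire this loop could be read in some of the genes whose values are given below. They are printed, with the motif in capitals, to show which genes share an element. The sequences are from RefSeq on GRCm38.p6 and run in the direction of transcription. Windows reached from 250 bases before to 50 bases after a start site, both strands were searched, and overlapping matches were allowed. The RORE core (NTAGGTCA or NTGGGTCA) stood in 6.44% of 32851 such windows. Among the members it was found at Arntl, at chr7:113207529-113207558 on the plus strand, just inside the transcribed sequence. It was also found before the start of Nfil3, the output factor E4BP4, at chr13:52981040-52981066 on the minus strand, where the match lies on the opposite strand.
Arntl: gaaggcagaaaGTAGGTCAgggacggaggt
Nfil3: cgcggcgctcggaacTGACCTACtaac
The E-box CACGTG stood in 7.15% of the windows. It was found in windows of Per1 (chr11:69098768-69098803, plus strand), Cry1 (chr10:85185094-85185129, minus strand) and, 3 times, Ciart (chr3:95882252-95882359, minus strand), the CLOCK-interacting repressor CHRONO. Windows of Tef and Bhlhe41, not printed, held it too. No window of the other members held it, and those include Nr1d1 and Nr1d2.
Per1: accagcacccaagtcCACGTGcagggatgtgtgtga
Cry1: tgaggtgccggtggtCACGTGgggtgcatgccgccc
Ciart: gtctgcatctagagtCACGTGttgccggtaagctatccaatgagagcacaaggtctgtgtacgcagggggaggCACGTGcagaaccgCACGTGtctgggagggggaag
The D-box (TTATGTAA or TTACGTAA), which DBP, TEF and HLF activate and NFIL3 represses, stood in 1.06% of the windows. It was found at Per3 alone among the members with a window, at 2 places, within chr4:151044801-151044885 on the minus strand.
Per3: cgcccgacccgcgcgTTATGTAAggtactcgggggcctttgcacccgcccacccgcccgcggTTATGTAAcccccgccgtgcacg
A match describes letters in a window and is not a measured site. Per2 has no window in the table used.

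Levels are log2 processed intensities relative to the 75th percentile of the same array. They are compared between mice for 1 probe at a time, never between probes. Arrays of a group correlated at a mean r of 0.979 to 0.993, and 83.8 to 90.6% of probes lay well above background. All 5 hepatocyte markers (Alb, Apoa1, Ttr, Cps1, Hnf4a) were above background on every array. The arrays lie on 6 slides, of which only slide 5 holds more than 1 group (2 HFD and 2 HFD MTX50 mice). All 4 LFD arrays share slide 1, so in every comparison with LFD, slide and group cannot be told apart. In bulk liver, fewer cells of a type and less RNA per cell cannot be told apart either. A probe's test is limma's over all 4 groups, adjusted over 35735 probes, and called means an adjusted p below 0.05. Across all genes the median difference was 0.08 (HFD vs LFD), 0.10 (LFD MTX50 vs LFD), −0.04 (HFD MTX50 vs HFD) and −0.11 (difference between treatment effects). The 2 groups did not overlap for 40.3% of all genes in HFD vs LFD. That share was 29.1% in LFD MTX50 vs LFD and 11.4% in HFD MTX50 vs HFD, so a lack of overlap is common here.

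Arntl, the obligate activator, was lower in HFD than in LFD livers. The 4 LFD mice read −0.10, −1.75, −0.44 and −0.0095, the 4 HFD mice −2.19, −2.86, −1.68 and −2.35. LFD mouse 2 reached into the HFD range and the other LFD mice lay above it. The difference was −1.69 ± 0.49 (SE, adjusted p = 0.020), which is 3.24-fold. The LFD MTX50 mice read −3.05, −1.01, −1.48, −1.07 and −1.50, and the HFD MTX50 mice −0.87, −1.73, −2.33, −3.05 and −2.07. Both treated groups overlapped all others. The order of the group means was HFD (−2.27), HFD MTX50 (−2.01), LFD MTX50 (−1.62) and LFD (−0.57), and each neighbouring pair in it overlapped.

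Clock, the histone acetyltransferase partner of ARNTL, was lower in HFD and in LFD MTX50 than in LFD. Its LFD values were −1.13, −1.11, −0.96 and −0.83, and its HFD values −1.38, −1.71, −1.68 and −1.71. Those groups did not overlap, and the difference was −0.61 ± 0.15 (adjusted p = 0.0096), or 1.53-fold. The LFD MTX50 mice read −2.01, −1.45, −1.40, −1.35 and −1.37, all below every LFD mouse. That difference was −0.51 ± 0.14 (adjusted p = 0.016). The HFD MTX50 mice read −1.09, −1.23, −1.48, −1.53 and −1.16, between LFD and HFD on average. Neighbours in the order of means, HFD, LFD MTX50, HFD MTX50 and LFD, overlapped in each case.

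Npas2, which can stand in for CLOCK, was dim, with a level of −5.37 to −4.19 over the 18 mice, and well above background on each array. It was the member of the activator arm that did not go with Arntl and Clock. The LFD mice read −5.09, −5.37, −5.14 and −4.98, and the HFD mice −4.96, −4.65, −4.64 and −4.62. The groups did not overlap, as for 40.3% of all genes, and the difference of 0.42 ± 0.16 missed the threshold (adjusted p = 0.052). Treated LFD mice exceeded LFD by 0.40 ± 0.15 (adjusted p = 0.052). The low end of all signals, close to this probe, also lay lowest in LFD. The 10th percentile of kept probes was −5.97 to −5.77 in LFD and −5.68 to −5.37 in HFD. In LFD MTX50 it was −5.80 to −5.06, and in HFD MTX50 −5.85 to −5.48. Its part in the Npas2 differences was not tested.

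Of the repressors, Cry1 gave the lowest adjusted p of the members in HFD vs LFD. Its LFD values were −1.49, −2.61, −2.03 and −1.21 and its HFD values −3.41, −3.28, −3.52 and −3.73, with no overlap. The difference was −1.65 ± 0.33 (adjusted p = 0.0046), or 3.14-fold. The LFD MTX50 mice read −2.86, −2.74, −3.45, −2.26 and −2.39, and the HFD MTX50 mice −1.79, −2.53, −3.01, −3.21 and −3.10. LFD MTX50 overlapped LFD through LFD mouse 2 alone, with a difference of −0.91 ± 0.31 (adjusted p = 0.040). All HFD MTX50 mice lay above all HFD mice, with a difference of 0.76 ± 0.31 that was not called (adjusted p = 0.11; exact permutation p = 0.024). In that comparison the groups did not overlap for 11.4% of all genes. In the order of means, HFD, LFD MTX50, HFD MTX50 and LFD, each neighbouring pair overlapped.

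The Per genes and Cry2 were not called in any comparison. Per1, a fast, stress-responsive repressor, ranged from 1.34 to 2.80, Per2, the main PER of the loop, from −4.08 to −2.17, and Per3, an auxiliary PER, from −3.36 to −2.59. Per2 had group means of −3.08 (LFD), −3.10 (LFD MTX50), −2.98 (HFD) and −3.13 (HFD MTX50). Its 95% interval for HFD vs LFD was −0.54 to 0.75. Cry2 had no usable spot for HFD mice 2 and 4, which the software marked as outliers, so HFD is 1.81 ± 0.57 (SD, n = 2) against 2.07 ± 0.39 (SD, n = 4) in LFD.

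Of the REV-ERB genes, which repress Arntl, Nr1d2 rose in LFD MTX50 and Nr1d1 was not called in a comparison of 2 groups. Nr1d1 read −3.26, −2.29, −2.93 and −3.98 in LFD and −1.92, −2.40, −2.23 and −2.14 in HFD. LFD mouse 2 again fell inside the HFD range, and the difference of 0.94 ± 0.35 narrowly missed the threshold (adjusted p = 0.0503). In LFD MTX50 it read −2.01, −2.50, −2.04, −2.01 and −3.16, a difference of 0.77 ± 0.33 from LFD (adjusted p = 0.083). In HFD MTX50 it read −2.92, −3.24, −2.12, −2.30 and −3.37, a difference of −0.62 ± 0.33 from HFD (adjusted p = 0.21). Nr1d2, the other REV-ERB gene, read −0.89, −0.067, −0.73 and −1.71 in LFD and 0.23, −0.56, −0.24, 0.049 and −0.23 in LFD MTX50. That rise of 0.70 ± 0.25 was called (adjusted p = 0.049), with LFD mouse 2 overlapping the treated mice. In HFD Nr1d2 was −0.37 ± 0.29 (SD, n = 4) and in HFD MTX50 −0.20 ± 0.27 (SD, n = 5), not called in either comparison.

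**Figure D1:**
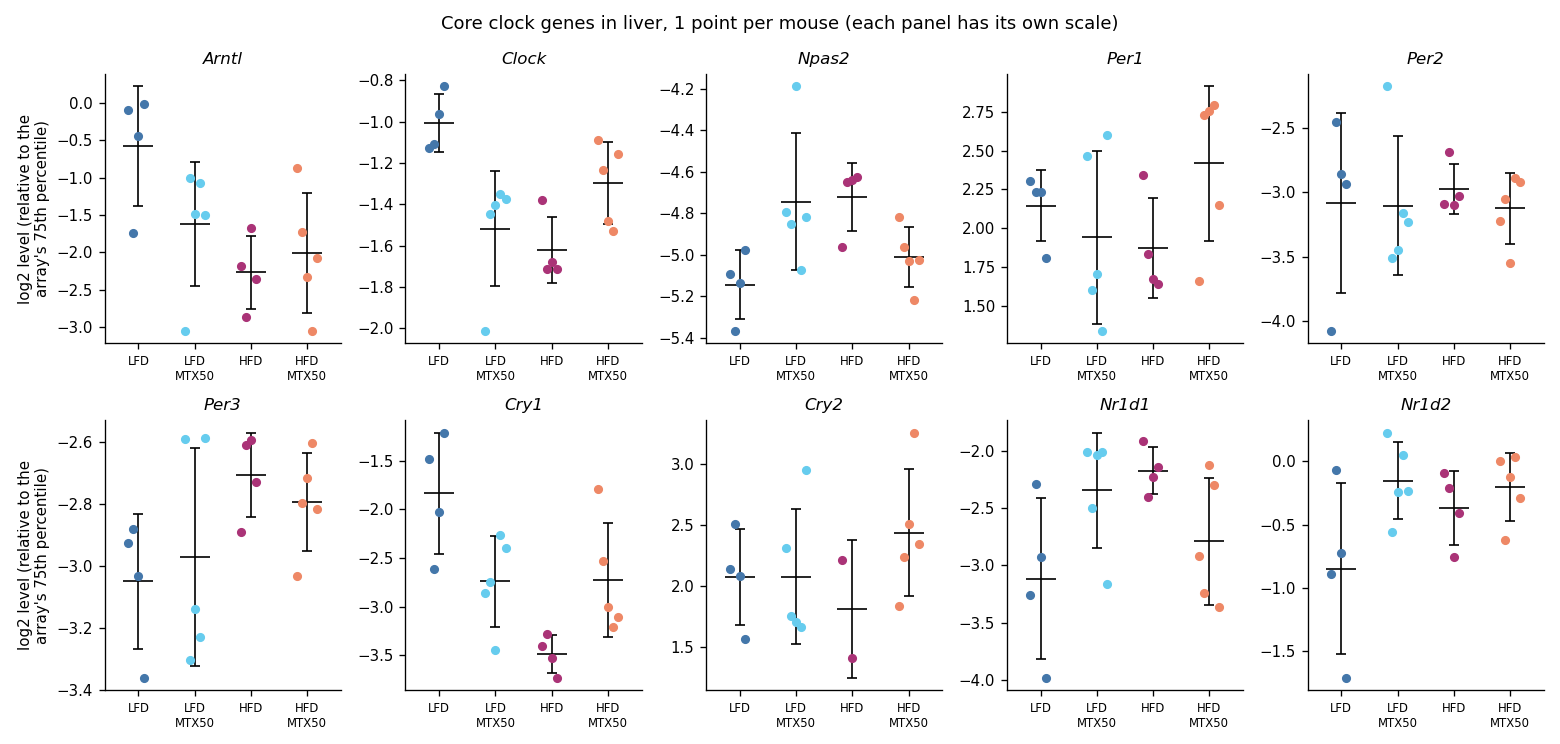
Log2 level of each core clock gene, relative to the array's 75th percentile, in each mouse (points) with group means and SD (bars); each panel has its own axis. HFD points of Cry1 (−3.73 to −3.28) lie below all LFD points (−2.61 to −1.21), and 1 LFD mouse in Arntl and Nr1d1 lies among the HFD mice.

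Counted together, 3 of 10 members (Arntl, Clock, Cry1) were called in HFD vs LFD, all lower, where 28.3% of all genes were called (3522 higher, 2033 lower). In LFD MTX50 vs LFD 3 were called, Clock and Cry1 lower and Nr1d2 higher, against 28.1% of all genes. Both shares are close to the background, so the number of members called is no result about the clock. By the exact permutation test, Clock and Cry1 had p = 0.029 and Arntl p = 0.057 in HFD vs LFD, and Clock had p = 0.0079, Cry1 p = 0.040 and Nr1d2 p = 0.063 in LFD MTX50 vs LFD. These comparisons use the same LFD mice, and their values are given side by side only. In HFD MTX50 vs HFD 0 members were called by limma, and 0 by the methods' t-test after adjustment, against 11% of all genes by limma and 0 of 19597 genes by the latter. At an unadjusted p below 0.05, limma gave 2 members (Clock and Cry1, both higher) of 10 and 6039 of 19597 genes. On the shared slide 5 the differences were 1.47 for Cry1, 0.54 for Clock, 0.71 for Arntl and −0.89 for Nr1d1. Between mice on the other slides they were 0.24, 0.16, 0.038 and −0.44. With slide as a fixed block, Cry1 stood at 1.47 (adjusted p = 0.062).

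The effect of methotrexate differed between the diets for 4 of 10 members, against 26.8% of all genes. The treatment effect on HFD minus that on LFD was 0.83 ± 0.20 for Clock (adjusted p = 0.0097), 1.66 ± 0.44 for Cry1 (adjusted p = 0.014), −0.69 ± 0.21 for Npas2 (adjusted p = 0.025) and −1.39 ± 0.46 for Nr1d1 (adjusted p = 0.036). Clock and Cry1 were lower with the drug on LFD and not called on HFD, and Nr1d1 and Npas2 were not called on either diet alone. Npas2, a dim probe, lost this call under quantile normalization (−0.19, adjusted p = 0.38) and with 50 added to the signal (−0.45, adjusted p = 0.059). Arntl had a difference of the same sign as Clock that was not called (1.31 ± 0.66, adjusted p = 0.14). Since LFD enters with the opposite sign, these differences share the LFD and HFD mice with the comparisons above.

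**Figure D2:**
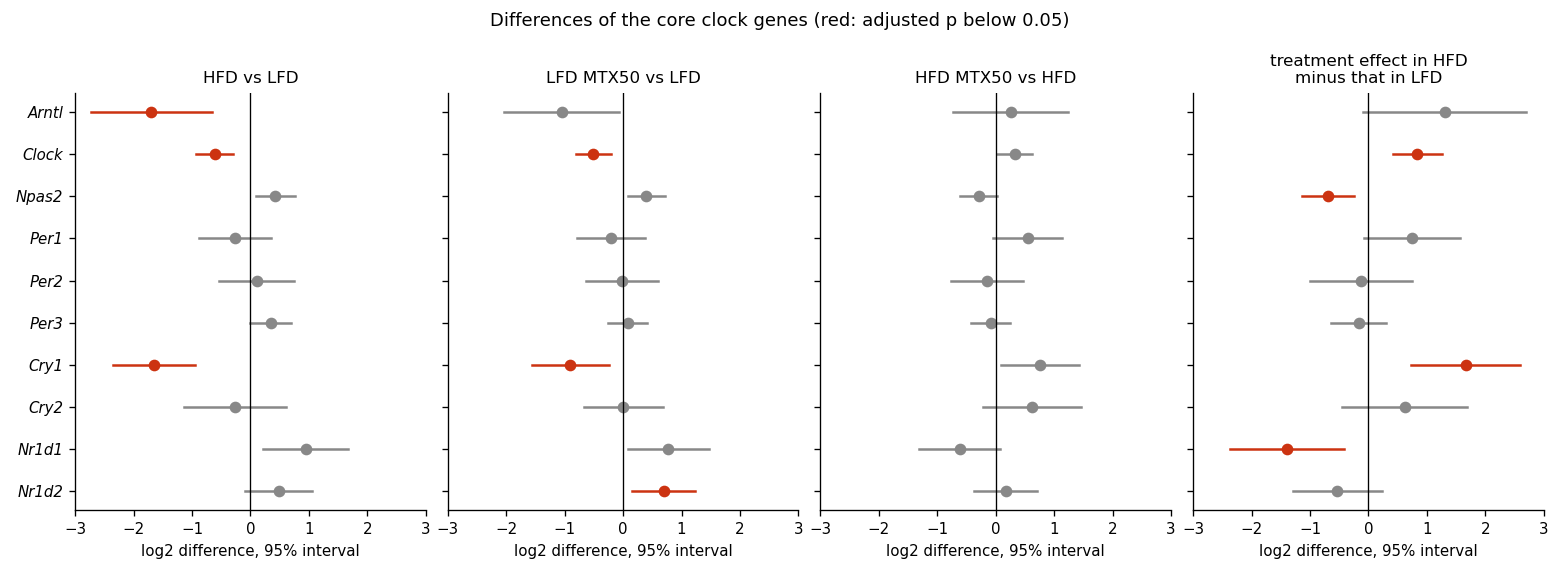
Log2 differences of the members with 95% intervals in the 4 comparisons; red marks an adjusted p below 0.05. Arntl, Clock and Cry1 lie left of 0 in HFD vs LFD (−1.69, −0.61 and −1.65), and the right panel places Clock and Cry1 (0.83 and 1.66) opposite to Npas2 and Nr1d1 (−0.69 and −1.39).

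Some of these calls hang on slide or on single mice. With slide as a random block (correlation 0.262), Cry1 alone kept its call in HFD vs LFD (−1.77, adjusted p = 0.048), and Arntl (0.0998) and Clock (0.074) lost theirs, as 380 genes in all were called. In LFD MTX50 vs LFD and in the difference between treatment effects that block left 0 members called, with Clock at 0.15 and 0.0504. Clock and Cry1 kept their calls in HFD vs LFD and in the difference between treatment effects when any 1 of the 18 mice was left out, and Clock also in LFD MTX50 vs LFD. Arntl lost its call in HFD vs LFD without LFD mouse 4 (adjusted p = 0.058), HFD mouse 2 (0.053) or HFD mouse 4 (0.054). Against LFD, Arntl of LFD MTX50 gained one without LFD mouse 2 (−1.44, adjusted p = 0.044). There, Cry1 lost its call in 6 of 18 such fits (each of LFD mice 1, 3 and 4 and of treated mice 1, 2 and 3, adjusted p = 0.061 to 0.12). Nr1d2 lost its own in 14 of 18 and kept it only without mouse 2 of LFD, of LFD MTX50 or of HFD MTX50, or without HFD mouse 3, reaching an adjusted p of 0.18 without LFD mouse 4. In the difference between treatment effects, Nr1d1 lost its call in 10 of 18 fits (up to 0.074, without LFD mouse 4), and Npas2 without LFD mouse 2, HFD mouse 3 or HFD mouse 4 (0.055 to 0.056).

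Outside the core loop, 4 of 7 clock output factors were called in HFD vs LFD, where 28.3% of all genes were. Of the 7 output factors (Dbp, Tef, Hlf, Nfil3, Bhlhe40, Bhlhe41, Ciart), 3 rose and 1 fell, with a median difference of 0.59. Hlf, a D-box activator (−0.10, adjusted p = 0.70), Bhlhe40, the E-box repressor DEC1 (0.11, adjusted p = 0.83), and Ciart were not called. Dbp, a D-box activator, read −0.0059, 2.23, 0.19 and −0.23 in LFD and 2.08, 2.38, 1.48 and 2.15 in HFD. LFD mouse 2, low in Arntl, was the LFD mouse high in Dbp, and the difference was 1.48 ± 0.53 (adjusted p = 0.045). Tef, another D-box activator, was higher by 1.06 ± 0.38 (adjusted p = 0.045), and Bhlhe41, the E-box repressor DEC2, by 0.59 ± 0.17 (adjusted p = 0.018). Nfil3, the D-box repressor, fell by 1.12 ± 0.32 on the log2 scale (adjusted p = 0.019). Its LFD values were 2.69, 1.60, 1.91 and 3.41, and its HFD values 1.66, 1.13, 1.01 and 1.33. The exact permutation p, which uses the compared mice alone, was 0.11 for Dbp, 0.11 for Tef, 0.057 for Nfil3 and 0.029 for Bhlhe41.

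Ciart, with 3 E-boxes in its window, spread widely between mice. In LFD it read −8.24, −2.37, −5.98 and −8.54, and mice 1 and 4 were not well above background. In LFD MTX50 it read −0.074, −4.39, −2.57, −4.72 and −0.40. The fitted difference was 3.85 ± 1.15 (adjusted p = 0.022), with mice of the groups overlapping, and 3.16 ± 1.21 for HFD vs LFD (adjusted p = 0.059). These 2 sizes rest on LFD signals at the background and are no measured folds. In LFD MTX50 vs LFD Tef (1.49 ± 0.36, adjusted p = 0.0084) and Bhlhe41 (0.45 ± 0.16, adjusted p = 0.042) also rose, so 3 of 7 factors rose and 0 fell, where 28.1% of all genes were called (17.6% higher), with Dbp at 0.37 ± 0.50 (adjusted p = 0.59). In HFD MTX50 vs HFD 0 of 7 were called by limma, where 11% of all genes were. By limma 1 of 7 had an unadjusted p below 0.05, against 6039 of 19597 genes. The treatment effects differed for Tef (−1.45 ± 0.50, adjusted p = 0.042) and Bhlhe41 (−0.84 ± 0.22, adjusted p = 0.015).

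**Figure D3:**
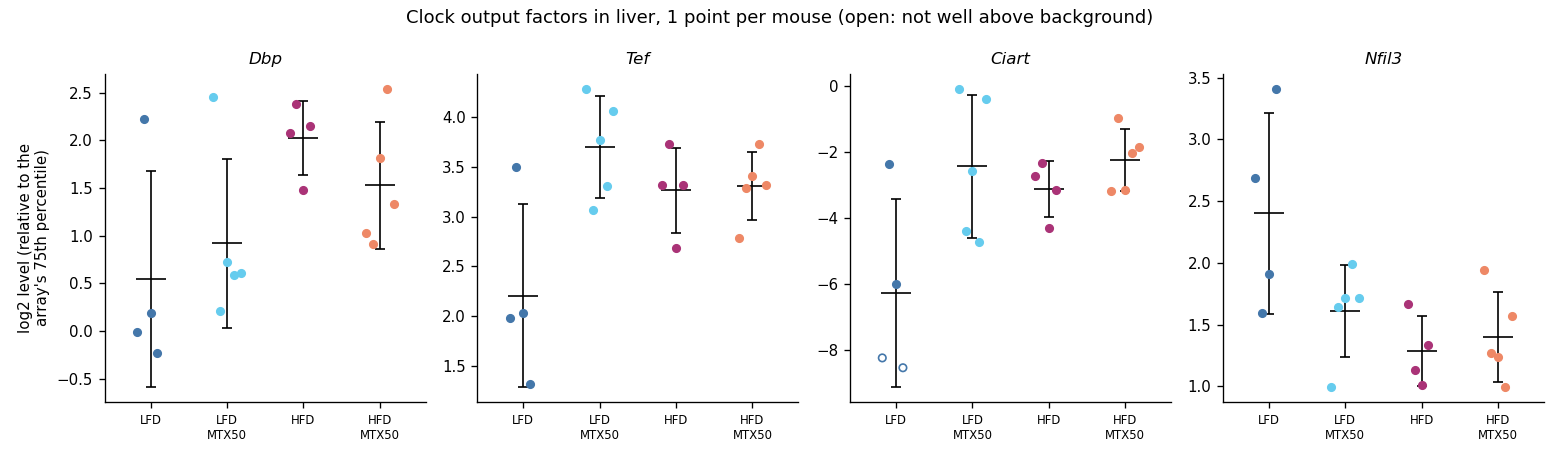
Log2 levels of Dbp, Tef, Ciart and Nfil3 by mouse, with group means and SD; open points were not well above background. HFD points of Dbp (1.48 to 2.38) lie above all LFD points but that of mouse 2 (2.23), and Nfil3 runs the other way.

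Other genes around the loop were given by list. Of all genes, 28.3% were called in HFD vs LFD, 28.1% in LFD MTX50 vs LFD and 11% in HFD MTX50 vs HFD. For the difference between treatment effects the share was 26.8%. The genes below are given as single values, and their number is no result about a list. Rora, a receptor that activates through the RORE, fell in HFD vs LFD (−0.45 ± 0.14, adjusted p = 0.026). Of 9 genes for clock protein turnover and corepression, Csnk1e, the kinase CK1ε that marks PER proteins, rose and Btrc, a ubiquitin ligase subunit for them, fell in HFD vs LFD (0.38 ± 0.13 and −0.46 ± 0.16, adjusted p = 0.041 and 0.039). Csnk1e also rose in LFD MTX50 vs LFD (0.36 ± 0.13, adjusted p = 0.045), and Btrc rose with the drug on HFD (0.56 ± 0.15, adjusted p = 0.027). In that list the treatment effects differed for Csnk1e (−0.67 ± 0.18), Btrc (0.96 ± 0.21), Fbxl21 (0.79 ± 0.28) and Fbxw11 (0.45 ± 0.16). Of 8 rhythmic liver genes, Avpr1a, the vasopressin receptor V1a, fell in HFD vs LFD by 2.08 ± 0.35 on the log2 scale (adjusted p = 0.0029) and rose with the drug on HFD (1.82 ± 0.33, adjusted p = 0.0079), and its treatment effects differed (1.38 ± 0.47, adjusted p = 0.038). Usp2, a deubiquitinase, rose in LFD MTX50 vs LFD (2.24 ± 0.81, adjusted p = 0.047; exact permutation p = 0.095). No other gene of the turnover list or the rhythmic list was called by limma in any of the 4 comparisons.

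Some markers of liver cell types were called too, and their part in the clock values was not tested. Of all genes, 28.3% were called in HFD vs LFD, 28.1% in LFD MTX50 vs LFD and 11% in HFD MTX50 vs HFD. The marker counts below are to be read beside those shares. The hepatocyte markers summed to 528 to 626 in LFD, 591 to 695 in LFD MTX50, 466 to 532 in HFD and 426 to 575 in HFD MTX50 (in units of the array's 75th percentile). In HFD vs LFD 2 of 5 were called, Cps1 and Hnf4a, both lower. The 5 Kupffer cell and macrophage markers summed to 23.7 to 36.3 in LFD, 15.7 to 22.1 in LFD MTX50, 15.6 to 32.9 in HFD and 22.05 to 39.1 in HFD MTX50. With the drug on LFD Cd68 alone of these was called (−0.94). Adgre1 stood at −0.40, Timd4 at −0.14, Clec4f at 0.33 and Vsig4 at 0.32. In HFD vs LFD Timd4 alone was called (−0.80, adjusted p = 0.038), with Adgre1 at −0.48, Cd68 at −0.40, Vsig4 at −0.24 and Clec4f at −0.028. The 5 neutrophil markers summed to 0.996 to 1.31 in LFD, 1.08 to 6.90 in LFD MTX50, 1.02 to 2.08 in HFD and 1.17 to 49.5 in HFD MTX50. Ngp, a neutrophil granule protein, was not above background on any LFD or HFD array. The 3 measured erythroid markers of 5 summed to 3.12 to 3.73 in LFD, 0.464 to 1.08 in LFD MTX50, 2.86 to 3.67 in HFD and 0.751 to 3.71 in HFD MTX50. With the drug on LFD Alas2 fell (−2.99), with Slc4a1 at 0.29. On HFD Epb42 was called higher with the drug (a fitted 3.19, no measured fold, since it was not well above background on any HFD array). Alas2 stood at −1.25 and Slc4a1 at 0.38 there. The other lists each had 5 measured markers. Called in HFD vs LFD were 2 lymphocyte (Cd79a and Cd8a, higher), 0 endothelial, 1 stellate (Acta2, higher) and 1 cholangiocyte marker (Sox9, lower).

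Within groups, Clock and Cry1 went up with Arntl between mice, and Per1, Per3 and Cry2 went down. With group means removed, Arntl was set against the other 9 members over 18 mice by permutation within groups (100000 permutations, adjusted over 9 relations). Clock rose with it (Pearson r = 0.75, p = 0.0043, adjusted p = 0.019; Spearman rho = 0.61, p = 0.016), as did Cry1 (r = 0.65, p = 0.016, adjusted p = 0.027; rho = 0.61, p = 0.015). Per3 (r = −0.67, p = 0.0029, adjusted p = 0.019; rho = −0.62, p = 0.012) and Per1 (r = −0.59, p = 0.021, adjusted p = 0.027; rho = −0.62, p = 0.015) ran against it. So did Cry2 over 16 mice (r = −0.69, p = 0.011, adjusted p = 0.024; rho = −0.81, p = 0.0011). Leaving out the 2 mice farthest from the median of Arntl, LFD MTX50 mouse 1 and LFD mouse 2, left r at 0.62 for Clock, 0.64 for Cry1, −0.54 for Per3, −0.57 for Per1 and −0.74 for Cry2. For Per2 (r = −0.66, p = 0.011, adjusted p = 0.024; rho = −0.57, p = 0.026) and Nr1d2 (r = −0.60, p = 0.019, adjusted p = 0.027; rho = −0.59, p = 0.022) it left −0.35 and −0.37, so these relations rest on those mice. Nr1d1 (r = −0.50, p = 0.075, adjusted p = 0.084; rho = −0.48, p = 0.074) and Npas2 (r = 0.31, p = 0.28, adjusted p = 0.28; rho = 0.35, p = 0.18) were not called, and fell to −0.33 and 0.21 without the same mice. The sign was the same in all 4 groups for Clock, Per1, Per2, Per3 and Nr1d2.

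No slide holds 6 arrays of a group, so r within a slide is not given. With the means of each group on each slide removed, r over the 17 mice that share a slide with one of their group was 0.79 for Clock, 0.59 for Cry1, −0.82 for Per3 and −0.64 for Per1, and −0.85 for Cry2 over 13. Under normexp background modelling the sign turned for Per2, Per3 and Nr1d1 (r = 0.60, 0.71 and 0.58, adjusted permutation p = 0.021, 0.0090 and 0.021), and the level of dim probes varied strongly between arrays. The 10th percentile of kept probes ran from −4.25 to −0.35 under it, against −5.97 to −5.06 otherwise.

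Dbp had the lowest correlation with Arntl of 17525 genes above background on all arrays, with r = −0.94 over 18 mice and −0.89 without LFD MTX50 mouse 1 and LFD mouse 2. The genes are given by rank as a description, with no test, and mice of a slide share a hybridisation. After Dbp came Gpcpd1 (−0.88), Cyp2a4 (−0.87, which a probe may not separate from its close paralogs), Tef (−0.86) and Zfp354b (−0.83). The highest were Pnrc1 (0.91), Lgalsl (0.89), Desi2 (0.89), Net1 (0.88) and Lrfn3 (0.87). Among clock genes, Clock ranked 52 and Nfil3 80 (r = 0.73) from the top, and Hlf 72 (r = −0.70) and Per3 123 from the bottom. The other ranked members and output factors lay further in. From the top, Cry1 ranked 249, Npas2 4057 and Bhlhe41 7955. From the bottom, Per2 ranked 144, Nr1d2 355, Per1 387, Nr1d1 1000 and Bhlhe40 4330. Many genes outside the clock thus ran with or against Arntl as closely as Cry1 or Per1. The nearest to Nr1d1 were Phb2 (0.87), Bbox1 (0.84), Ykt6 (0.83), Pcsk4 (0.82) and Gm5617 (0.81), with Nr1d2 at rank 36 (0.73). The lowest were Neu3 (−0.96), Ephb4 (−0.88), Fbxo42 (−0.88), Ly6g6d (−0.86) and Rprd1a (−0.85).

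**Figure D4:**
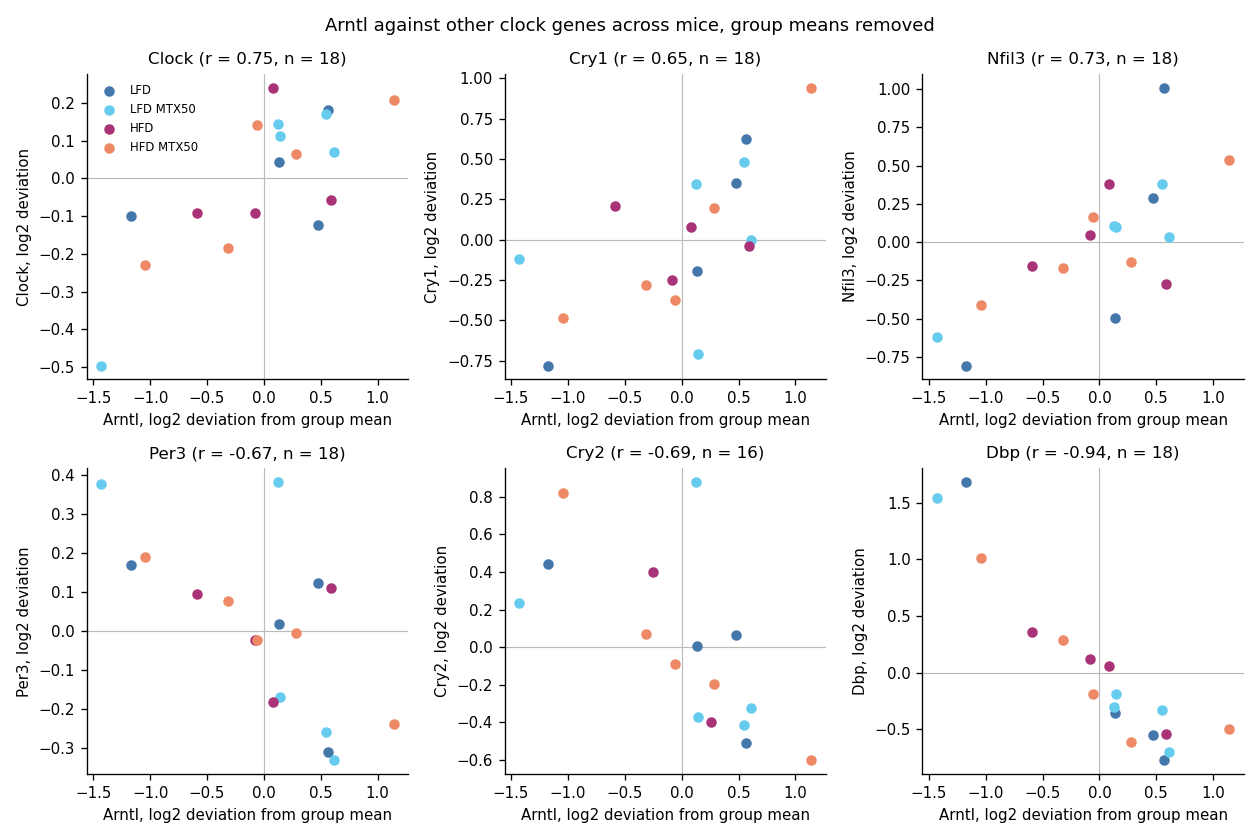
Deviation of Clock, Cry1, Nfil3, Per3, Cry2 and Dbp from their group mean against that of Arntl, 1 point per mouse, coloured by group, in log2 units. Clock, Cry1 and Nfil3 slope up (r = 0.75, 0.65 and 0.73) and Per3, Cry2 and Dbp slope down (r = −0.67, −0.69 and −0.94).

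The question of a phase shift was put to each mouse as the mean level of Arntl, Clock and Npas2 minus that of Nr1d1, Nr1d2, Per1, Per2 and Per3. This is a description, with no test, and its zero depends on the probes. In LFD it read −0.34, −1.65, −0.72 and 0.099, and in HFD −1.71, −1.86, −1.26 and −1.56. LFD mouse 2 lay inside the range of the HFD mice, and the other LFD mice lay above it. In LFD MTX50 it read −2.47, −0.78, −0.92, −1.09 and −1.24, and in HFD MTX50 −0.76, −1.24, −1.79, −2.27 and −1.30. Group means were −0.65 ± 0.74 (SD, LFD), −1.30 ± 0.67 (LFD MTX50), −1.60 ± 0.25 (HFD) and −1.47 ± 0.58 (HFD MTX50), and the treated groups overlapped both untreated ones. With Arntl and Npas2 minus Nr1d1 and Per3 the means were 0.22, −0.53, −1.05 and −0.72, in the same order of groups. The genes of a side did not all run together between mice. With group means removed, r was 0.75 for Arntl with Clock, 0.73 for Nr1d1 with Nr1d2 and 0.74 for Per1 with Per3. It was 0.12 for Clock with Npas2, and 0.13, 0.16 and 0.14 for Nr1d1 with Per1, Per2 and Per3.

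A shift of a common rhythm would move opposed genes in opposite directions. In HFD vs LFD the called members Arntl, Clock and Cry1, and Nfil3, were lower, and Dbp and Tef were higher. Of the genes not called, Nr1d1 (0.94), Nr1d2 (0.48), Per3 (0.34) and Per2 (0.10) had the sign of Dbp. Npas2 (0.42, a dim probe), opposite to Arntl, and Per1 (−0.27), Cry2 (−0.26) and Hlf (−0.10), opposite to Dbp, did not go with that split. In LFD MTX50 vs LFD, Clock and Cry1 were lower and Nr1d2, Tef and Ciart higher, with Arntl at −1.05 (adjusted p = 0.096) and Dbp at 0.37, not called. Of the others not called there, Nr1d1 (0.77), Nfil3 (−0.79), Per3 (0.080) and Cry2 (0.0048) went with the split. Npas2 (0.40), opposite to Arntl, and Hlf (−0.33), Per1 (−0.20) and Per2 (−0.022), opposite to Dbp, did not. With 1 sample per mouse and no harvest time, a changed phase, a changed level and a different time of sampling cannot be told apart.

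**Figure D5:**
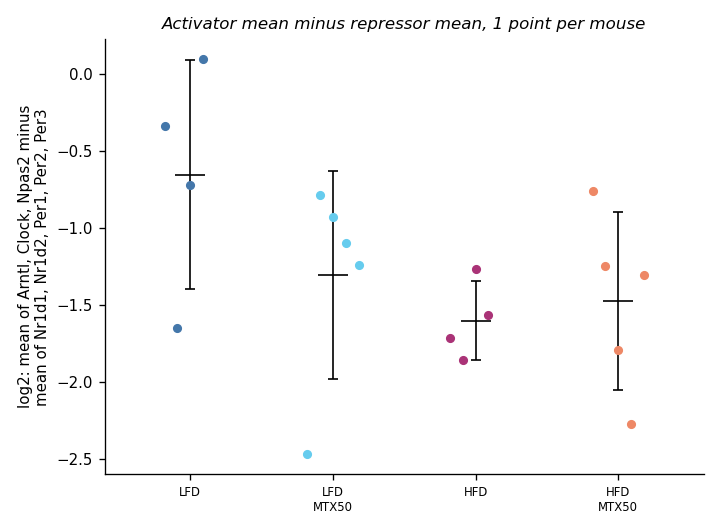
Mean log2 level of Arntl, Clock and Npas2 minus that of Nr1d1, Nr1d2, Per1, Per2 and Per3 in each mouse, with group means and SD. The HFD mice lie between −1.86 and −1.26, 3 of 4 LFD mice lie above them, and both treated groups span a wider range.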

How the data were processed

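Liver RNA of 18 mice was hybridised to one-colour Agilent arrays, 1 per mouse. Per the labels and the study's methods, RNA was purified on RNeasy columns, amplified and Cy3-labelled. The submitters' notes name Agilent Feature Extraction 10.7.3.1. The deposited scanner files hold the authors' processed intensity per spot, background-subtracted by that software, and the series table holds a background-subtracted intensity that was used as an alternative.

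From these, log2 processed intensity minus each array's 75th percentile was computed. Control spots and outlier spots (124 to 294 per array) were left out, spots of a probe were averaged, and no spot was saturated. Of 39429 probes, 28025 (71.1%) were named through RefSeq (GRCm38.p6), giving 21153 genes. Probes well above background on at least 4 arrays were kept (35735 probes, 19597 genes), and a gene was read by its brightest probe. One limma model (3.58.1, R 4.3.3) held all 4 groups, and p-values were adjusted by Benjamini-Hochberg across every kept probe. Single values also got a two-sided exact permutation test, whose smallest p is 0.0286 for 4 against 4 mice and 0.00794 for 4 against 5. The number of arrays limits the precision.

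The members and gene lists were chosen with earlier results of these data known. Named were all members, listed genes with an adjusted p below 0.05, Dbp, Tef, Ciart and Nfil3, and the 5 genes at each end of the correlations with Arntl and Nr1d1. Alternatives were normexp on the median signal, since no mean signal was in the files used here, other scalings, filters, variance models, slide and replicate blocks, call rules and leaving out each mouse. Adding 50 to the processed signal was chosen after seeing the data. 1 listed gene is not reported here. The model code was tested on simulated data.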

Additional observations from a re-analysis of the deposited data

Results flagged for a closer look

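In 7 of 39 groups of a member's values, 1 mouse stood apart from the rest of its group by Dixon's test at the 95% level, where chance alone would give about 1.95. LFD MTX50 mouse 1 was such a mouse for Arntl (−3.05), Clock (−2.01) and Per2 (−2.17), low in both activators and high in Per2. HFD mouse 1 stood apart for Clock (−1.38, the highest of its group) and Npas2 (−4.96, the lowest). HFD mouse 2 did so for Per2 (−2.69) and LFD mouse 4 for Per1 (1.81). The effect of methotrexate differed between the diets, by the interaction in the limma model, for Clock (0.83), Cry1 (1.66), Npas2 (−0.69) and Nr1d1 (−1.39), given as the log2 effect on HFD minus that on LFD.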

How the results depend on the processing

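Of 626 values of members under alternatives that kept all mice, 551 kept their direction and their side of the threshold, 46 lost and 13 gained a call, and 16 changed sign. Most of the 551 belong to differences that the main model did not call. Those had no call to lose, so the 46 are not a share of 626. Members called in HFD vs LFD (3) became 0 under normexp, 5 with the series table (5155 genes in all, against 5555), 5 with probes above background on all arrays (5458 of 17526), 5 with those groups alone (8168) and 1 with slide as a random block. Those in LFD MTX50 vs LFD (3) became 0 under normexp, 0 with the random slide block, 0 with a 2-fold change required by either rule (930 and 931 genes in all, against 5503), 1 with the groups alone (6222) and 1 by the methods' t-test (5582). For the difference between treatment effects (4) the counts were 0 under normexp, 2 under quantile normalization, 0 with the random slide block and 2 with a 2-fold change required by either rule (1556 and 1577 genes, against 5243; 3332 under quantile normalization). Nr1d2 kept its call in LFD MTX50 vs LFD in 5 of 16 settings, and lost it also under quantile normalization, median scaling, no filter and the mean of a gene's probes. Nr1d1 gained one in HFD vs LFD in 6 of 16 settings and in 5 of the fits that left out a mouse. Under normexp 2 genes in all were called in HFD vs LFD, 339 with the drug on LFD, 0 with the drug on HFD and 0 in the difference, and the cause was not tested. With the random slide block these were 380, 340, 1858 and 1249. Leaving out 1 mouse gave 2 to 5, 1 to 5 and 2 to 4 members in HFD vs LFD, LFD MTX50 vs LFD and the difference, and 0 in HFD MTX50 vs HFD. Over all genes the same fits called 2244 to 6281, 3187 to 6214, 3007 to 6203 and 282 to 3034.

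The differences between groups that changed sign were not called. Per2 read −0.097 in HFD vs LFD under quantile normalization, and 0.74 in both treatment comparisons under normexp. In LFD MTX50 vs LFD it was 0.0099 with 50 added, and in the difference 0.16 (quantile) and 0.0013 (median scaling). Per3 was −0.12 (quantile) and −0.021 (median scaling) in LFD MTX50 vs LFD, 0.71 in HFD MTX50 vs HFD under normexp and 0.081 in the difference (quantile). Cry2 was 0.12 in HFD vs LFD with outlier spots kept, and in LFD MTX50 vs LFD −0.19 (normexp) and −0.096 (median scaling). In HFD MTX50 vs HFD under normexp Npas2 was 1.13 and Nr1d1 0.27. With 1 mouse left out, Per2 ran from −0.23 to 0.31 (HFD vs LFD), −0.35 to 0.19 (LFD MTX50 vs LFD) and −0.34 to 0.21 (difference). Cry2 ran from −0.66 to 0.14 (HFD vs LFD) and −0.21 to 0.15 (LFD MTX50 vs LFD), Per3 from −0.024 to 0.16 (LFD MTX50 vs LFD) and Arntl from −0.027 to 0.52 (HFD MTX50 vs HFD).

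Mean activator minus repressor levels moved to 0.22 in LFD, −0.53 after the drug there, −1.05 in HFD and −0.72 after the drug there, with Arntl and Npas2 minus Nr1d1 and Per3, and to −0.998 (HFD) and −0.62 (HFD MTX50) under normexp. Relations with Arntl under normexp were r = 0.76 for Npas2, 0.60 for Per2, 0.71 for Per3, 0.58 for Nr1d1 (all 4 with adjusted permutation p of 0.021 or lower) and −0.25 for Nr1d2.

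Same-numbered mice of different groups did not deviate together (r from −0.31 to 0.25, 4 of 18 arrays closest to their own number), so the numbers do not pair the mice. With a replicate block, 4 members were called in HFD vs LFD (5319 of 19597 genes in all) and 0 with the drug on HFD (1013 genes). In LFD MTX50 vs LFD 2 were called (Clock and Nr1d1, with 5415 genes in all), and 4 in the difference (5065 genes). Cry2 in LFD MTX50 vs LFD turned to −0.094 under that block.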

Other observations

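Among 9 steroid-responsive and immediate early genes, limma called 3 higher and 0 lower in LFD MTX50 vs LFD, where 28.1% of all genes were called (17.6% higher). Zbtb16, a transcription factor induced by glucocorticoids, rose by 1.95 ± 0.33 (SE, log2, adjusted p = 0.0017) and Junb, an AP-1 subunit, by 1.06 ± 0.19 (adjusted p = 0.0025), both without overlap between the groups. In that comparison 29.1% of all genes did not overlap. Egr1, an immediate early factor, rose by 1.68 ± 0.61 (adjusted p = 0.048; exact permutation p = 0.11) with overlap. In HFD vs LFD Junb rose (0.57 ± 0.21, adjusted p = 0.046) and Sgk1, a glucocorticoid-induced kinase, fell by 1.15 ± 0.34 (adjusted p = 0.022). In HFD MTX50 vs HFD 0 of 9 were called by limma, where 11% of all genes were. By limma 1 of 9 had an unadjusted p below 0.05, against 6039 of 19597 genes. The treatment effects differed between the diets for Zbtb16 (−1.46 ± 0.46, adjusted p = 0.029) and Junb (−1.11 ± 0.28, adjusted p = 0.011).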
